A study of Mus musculus with 18 samples.

Results

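Voltage-gated and potassium channel genes of the mouse brain were described in input and translating ribosome affinity purification (TRAP) RNA from Cx3cr1-NuTRAP mice given LPS or PBS. The members were the protein-coding genes of the count table whose symbols begin with Kcn, with Scn and a digit, or with Cacn, leaving out Kcnj8 and Kcnj10. This gave 132 of the 36172 genes listed. They comprise pore-forming and auxiliary subunits of K+, Na+ and Ca2+ channels.

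All 9 mice (6 female and 3 male) carried Cx3cr1-cre/ERT2 and NuTRAP, received tamoxifen at about 3 months of age, and were injected intraperitoneally 3 to 4 weeks later with 5 mg/kg LPS, a bacterial endotoxin, or with PBS as vehicle. Tissue was taken 24 h after the injection, and each animal gave an input and a positive library from a homogenised hemisected brain. In these mice Cre is driven by Cx3cr1, which is active in microglia and also in other macrophages, so the tagged ribosomes pulled down with an anti-GFP antibody can come from any of these cells. The 4 groups held 4 libraries each for Input PBS, Input LPS and Positive PBS and 5 for Positive LPS, leaving out the input library of animal 271, which held only 1252 counts. Within a group each library is a separate animal, and values are given in the order of animals 268, 272, 273 and 506 for PBS, and 266, 267, 270, 271 (positive fraction only) and 507 for LPS. The males were animals 272 and 273 among the PBS animals and 267 among the LPS animals, so sex was not balanced between treatments.

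Ion channels are built from a pore-forming subunit, or an assembly of them, that lets a given ion cross the membrane, and from auxiliary subunits that set its gating and its place in the cell. In neurons voltage-gated Na+ channels start the action potential, voltage-gated K+ channels end it, and Ca2+ channels couple it to transmitter release. Microglia express few of them, and their resting potential is set mainly by K+ channels without a voltage sensor, among them the two-pore-domain channel THIK-1, which Kcnk13 encodes.

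Counts were divided by a size factor per library and are called normalised counts. Of the 132 members, 111 had over 20 normalised counts in every library of at least 1 group and were tested with 14803 genes in all. The other 21 fell under this minimum, with at most 48.3 normalised counts in any library and no count in any library for Kcns2 and Kcnip2. The threshold for a call was an adjusted p (Benjamini-Hochberg) under 0.05 together with a log2 fold change over 0.32 in either direction, in edgeR's quasi-likelihood test. Every adjusted p below is from that test unless another fit or setting is named. Of the tested members, 103 passed the minimum in all 4 groups and 4 (Kcnn4, Kcnmb1, Kcng3 and Cacna1f) in only 1, and a gene of the last kind is high in the group through which it was kept. Library totals ran from 22968834 to 35123335 counts. All 8 microglia markers (among them Cx3cr1, P2ry12 and Tmem119) were higher in the positive fraction, with log2 fold changes over input between 4.00 and 4.43 in PBS animals and between 3.67 and 4.37 in LPS animals. All 5 endothelium markers were higher there too in PBS animals (median 1.46), and 4 of 5 in LPS animals (median 0.73). Values given below as on tagged ribosomes are those of the positive fraction, and the cells its RNA came from were not tested.

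Of 5 channel genes listed as microglial, Kcnk6 and Kcnn4 were higher in the positive fraction of PBS animals, and Kcnk13 joined them in LPS animals. Of these, Kcnn4 passed the minimum only through Positive LPS, where it is high. Kcna3 and Kcnj2 did not pass the test in either. Across all members 9 were higher and 44 lower in Positive PBS than in Input PBS, against 21.0% higher and 18.8% lower (39.8% in either direction) of all genes tested. In LPS animals 6 were higher and 59 lower, against 27.6% and 25.8% (53.4% in either direction). Counting only the 103 members that passed the minimum in every group, 8 were higher and 42 lower in PBS animals, and 4 and 56 in LPS animals. The median log2 fold change of the members was -0.30 in PBS and -0.42 in LPS animals, beside -0.00 and -0.03 over all genes. The comparisons share no library, and of the 111 tested members 41 were lower and 4 higher in both, against 15.9% and 17.2% of all genes tested.

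The promoter of Kcnk13 is shown because this gene was the member whose LPS effect differed most between fractions. The gene lies on the forward strand of chromosome 12, at chr12:99964499-100062682 (mm10). The 250 bases before its annotated start, chr12:99964249-99964498 in GRCm38.p6 as RefSeq gives it, read 5′ to 3′ as below, with the letters GAGGAA, the core of the site bound by the myeloid factor PU.1, in capitals.
Kcnk13: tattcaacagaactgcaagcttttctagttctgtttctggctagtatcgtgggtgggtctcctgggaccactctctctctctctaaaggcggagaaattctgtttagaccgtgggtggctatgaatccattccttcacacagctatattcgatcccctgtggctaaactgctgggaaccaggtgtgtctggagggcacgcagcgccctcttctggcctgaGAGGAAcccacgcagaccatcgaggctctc
This match is on the gene's own strand, 30 to 25 bases before the start. Either strand was searched over the 250 bases upstream of 32851 RefSeq promoters, of which 23.3% held GAGGAA. Among 133 promoters of 97 members that had one, 21.1% held it, as did 3 of the 4 promoters of microglial channel genes (Kcnk13, Kcnj2 and Kcna3, not Kcnn4), with Kcnk6 not searched here. The letters CAGCACC, a part of the RE1 element bound by the neuronal repressor REST, were in 5.73% of all, 5.26% of the members' and 6% of the 50 neuronal channel promoters, and not in that of Kcnk13. These matches are descriptions of the letters in the windows and were not tested.

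Kcnk6 encodes TWIK-2, a two-pore-domain K+ channel known for K+ efflux in macrophages, and lies at chr7:29221928-29232522 on the reverse strand. It had 199, 237, 216 and 199.6 normalised counts in Input PBS and 235, 225, 201 and 251 in Input LPS. In the positive fraction it had 3154, 2796, 2993 and 3321 with PBS and 2845, 3593, 2877, 2799 and 3903 with LPS. Every positive library was far above every input library, while PBS and LPS overlapped within each fraction. The positive fraction exceeded input by 3.85 (SE 0.12, adjusted p = 4.87e-14) on the log2 scale in PBS animals and by 3.81 (SE 0.12, adjusted p = 3.99e-14) in LPS animals, folds of 14.4 and 14.1. Within single animals the log2 ratio of positive to input lay between 3.56 and 4.05 with PBS and between 3.59 and 3.99 with LPS. Its log2 fold change with LPS on tagged ribosomes was 0.06 (SE 0.10, adjusted p = 0.643) and in input 0.10 (SE 0.12, adjusted p = 0.629), neither of them called. No other member was enriched as far, and its log2 enrichment was just under the range of the 8 microglia markers in PBS animals.

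Kcnk13, the gene of THIK-1, which sets the resting potential of microglia and whose K+ efflux is linked to NLRP3 inflammasome activity, changed in opposite directions in the fractions. It had 309, 451, 309 and 345 normalised counts in Input PBS and 244, 219.7, 157 and 208 in Input LPS. In Positive PBS it had 468, 447, 310.4 and 455, and in Positive LPS 1083, 999.7, 818, 1088 and 1119.5. All 5 Positive LPS libraries were above every other library, all Input LPS libraries were below all Input PBS libraries, and Positive PBS overlapped Input PBS. With LPS the positive fraction rose by 1.28 (SE 0.16, adjusted p = 4.74e-06) on the log2 scale, a fold of 2.43, and the log2 fold change in input was -0.77 (SE 0.17, adjusted p = 0.00366). The difference of these LPS effects was 2.05 (SE 0.23, adjusted p = 3.26e-05). Kcnk13 was the 1 member with a larger LPS effect in the positive fraction than in input, and 2 had a smaller one, against 5.46% and 1.42% (6.88% in either direction) of all genes tested.

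For this gene the enrichment itself depended on treatment. Positive exceeded input by 2.30 (SE 0.16, adjusted p = 1.18e-09) on the log2 scale in LPS animals, whereas the difference in PBS animals was 0.25 (SE 0.16, adjusted p = 0.218) and was not called. The ratio within an animal lay between -0.01 and 0.60 with PBS and between 2.15 and 2.42 with LPS, with no overlap. The microglia markers, by contrast, showed log2 enrichments of at least 4.00 in PBS animals, so Kcnk13 was far under them there. Its calls with LPS in both fractions, and that of their difference, were kept under each alternative setting tried. In bulk libraries fewer cells of a type and less RNA per cell cannot be told apart, and this holds for each LPS effect given here.

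**Figure D1:**
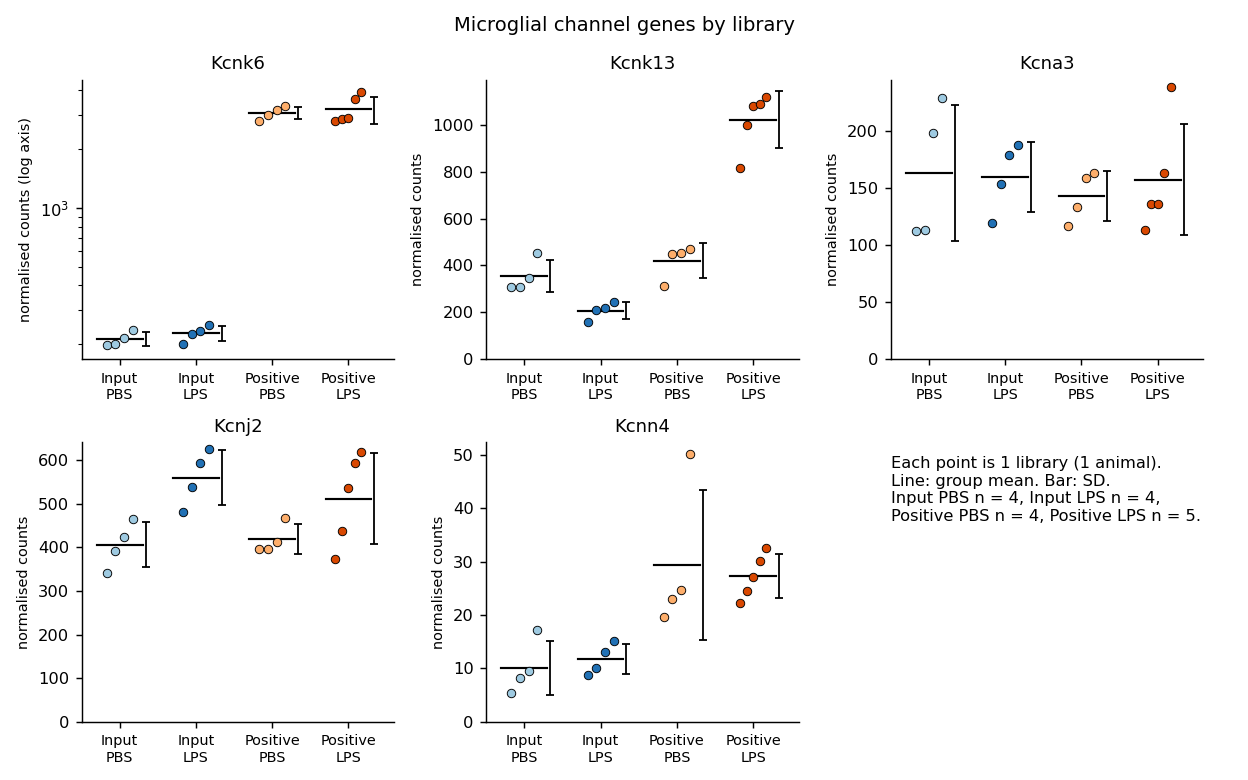
Normalised counts of 5 microglial channel genes (vertical axes, logarithmic for Kcnk6 only) in the 4 groups (horizontal axes). Each point is 1 library, lines are group means and bars are SD. Kcnk6 is high in both positive groups, Kcnk13 is high in Positive LPS alone (818 to 1120 normalised counts), and the groups of Kcna3 overlap.

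The remaining microglial channel genes were less uniform. Kcnn4 encodes KCa3.1, a Ca2+-activated K+ channel of microglia and blood cells. It had 5.47, 8.25, 9.50 and 17.1 normalised counts in Input PBS, 8.74, 10.1, 13.1 and 15.1 in Input LPS, 50.1, 24.7, 19.6 and 22.9 in Positive PBS and 24.5, 30.0, 22.3, 27.1 and 32.6 in Positive LPS. The positive libraries were all above the input libraries, at counts near the minimum. Its log2 enrichment was 1.54 (SE 0.36, adjusted p = 0.00187) with PBS and 1.19 (SE 0.33, adjusted p = 0.00491) with LPS, and neither LPS effect was called (-0.12 in the positive fraction, 0.23 in input).

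Kcna3 encodes Kv1.3, a voltage-gated K+ channel known in T cells and in activated microglia, and Kcnj2 encodes the inward rectifier Kir2.1. Kcna3 had 199, 112, 113 and 229 normalised counts in Input PBS, 188, 119, 154 and 179 in Input LPS, 159, 117, 134 and 163 in Positive PBS and 163, 113, 136, 238 and 136 in Positive LPS. All 4 groups overlapped, with log2 enrichments of -0.19 (SE 0.26, adjusted p = 0.558) with PBS and -0.03 (SE 0.24, adjusted p = 0.933) with LPS, and with LPS effects of 0.14 (SE 0.24, adjusted p = 0.68) on tagged ribosomes, and -0.03 (SE 0.25, adjusted p = 0.953) in input. Kcnj2 had 465, 342, 393 and 424 in Input PBS, 626, 539, 482 and 592 in Input LPS, 468, 396, 397 and 413 in Positive PBS and 619, 537, 373, 437 and 593 in Positive LPS. Every Input LPS library was above every Input PBS library, and the positive groups overlapped. Its log2 fold change with LPS was 0.46 (SE 0.15, adjusted p = 0.0441) in input, 0.29 (SE 0.14, adjusted p = 0.111) on tagged ribosomes, and the call in input was kept in only 11 of 27 alternative settings. It was lost without the animals numbered in the 500s (adjusted p = 0.17) and when any of 10 libraries was left out (Input LPS of animals 266, 267 and 507, Positive LPS of 267, and both libraries of 272, 273 and 506), with adjusted p from 0.0514 to 0.136 and log2 fold changes from 0.39 to 0.48. With sex as a covariate this call was lost too (adjusted p = 0.0578).

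The neuronal channel genes were mostly lower in the positive fraction than in input, yet still made up most channel reads there. Of 54 listed, 52 were tested, and in PBS animals 2 were higher (Kcna2, a Kv1 channel of axons, and Scn3b, an auxiliary Na+ channel subunit), 27 lower and 23 not called in the positive fraction. Their median log2 fold change was -0.37. The list ran from -1.09 for Cacna1b, the pore of the N-type Ca2+ channel of nerve terminals, through -0.38 for Scn8a (Nav1.6) and -0.36 for Kcnb2 (Kv2.2) in the middle, to 0.42 for Kcna2. In LPS animals 33 were lower and 0 higher by edgeR, DESeq2 and limma-voom (2 higher at an unadjusted p under 0.05), with a median of -0.49. Kcnb2 was not called in either treatment without a block. With the animal as a block it was called as lower in PBS animals (-0.34, adjusted p = 0.0318) and in LPS animals (-0.41, adjusted p = 0.00953).

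Summed over the neuronal list, Input PBS held between 202983 and 234474 normalised counts and Positive PBS between 191387 and 196680. Input LPS held between 201787 and 213823, and Positive LPS between 154569 and 169762. The positive sums lay below the input sums of the same treatment in every library, with the Positive LPS libraries lowest of all. As a share of all channel counts the neuronal list took 77.5% ± 0.84 (SD, n = 4) of Input PBS, 77.1% ± 0.56 (n = 4) of Input LPS, 74.4% ± 0.42 (n = 4) of Positive PBS and 73.3% ± 0.72 (n = 5) of Positive LPS. The 5 microglial channel genes took 0.398% ± 0.031, 0.431% ± 0.052, 1.56% ± 0.12 and 2.24% ± 0.34 of these groups.

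Neuron markers that are no channels did not follow the same course in PBS animals. Of 10 neuron markers 4 were higher and 0 lower in Positive PBS than in Input PBS, with a median log2 fold change of 0.18. Of 91 genes of the study's own neuron list that are no channels, 26 were higher and 11 lower, with a median of 0.06. In LPS animals the markers had 3 higher and 0 lower (median 0.00), and the study's list 12 higher and 28 lower (median -0.13). The count of lower markers was 0 in DESeq2 and limma-voom too, with 0 in PBS and 3 in LPS animals at an unadjusted p under 0.05 in edgeR. Whether the channel list differs from these lists was not tested. Over the 111 tested members the log2 enrichment in PBS animals fell with the summed exon length (Spearman's rho -0.20, a description across genes that share libraries), as it did over 14209 genes with a length (rho -0.21). The 25 members of 8 kb or more had a median of -0.52 and the 65 under 5 kb one of -0.19, beside -0.26 and 0.07 over all genes of these lengths, and the part of length in the result was not tested.

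**Figure D2:**
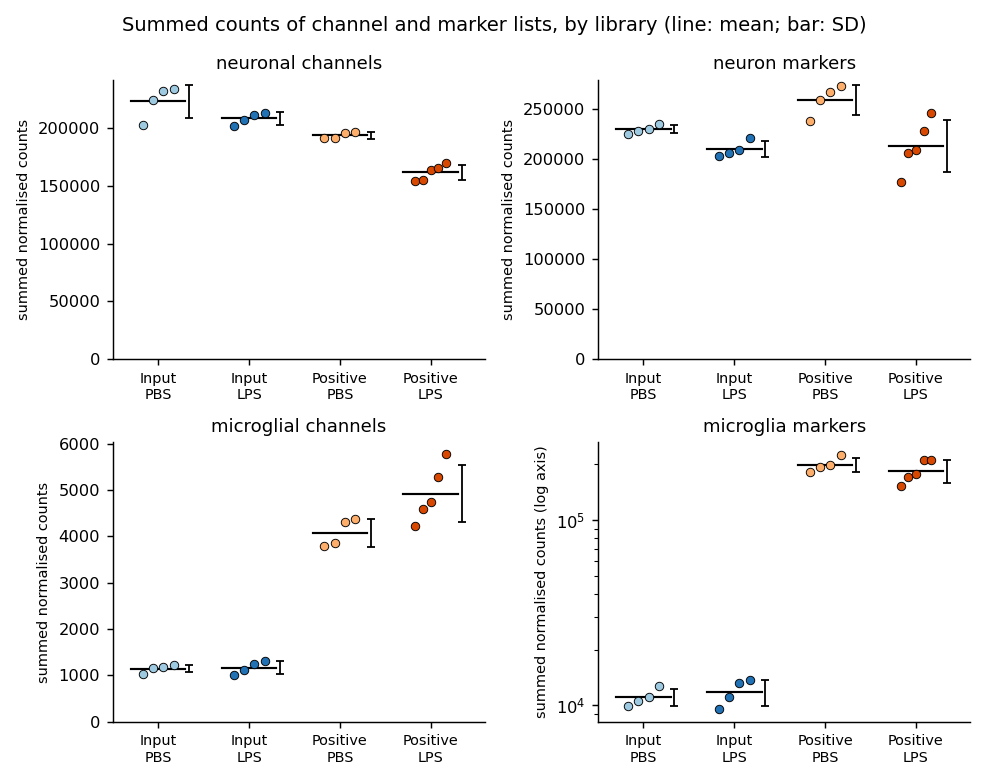
Summed normalised counts (vertical axes, logarithmic for the microglia markers only) of the neuronal channel list, 10 neuron markers, 5 microglial channel genes and 8 microglia markers in the 4 groups. Each point is 1 library, lines are means and bars are SD. Neuronal channel sums are lowest in Positive LPS (154569 to 169762), whereas both microglial lists are high in the positive groups.

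Per kilobase of exon, which allows levels of different genes to be compared, Kcnab2, an auxiliary beta subunit of Kv1 channels, was among the highest members in each group, with means of 3531 normalised counts per kb in Input PBS, 3456 in Input LPS, 3987 in Positive PBS and 3546 in Positive LPS. Kcnk6 rose from place 87 of 111 in Input PBS (52.1 per kb) to place 21 in Positive PBS (751 per kb) and stood at place 84 in Input LPS and place 16 in Positive LPS. Kcnk13 stood at place 72 in Input PBS (114 per kb), 80 in Input LPS (66.5 per kb), 62 in Positive PBS (135 per kb) and 45 in Positive LPS (328 per kb).

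By role, most pore-forming subunits of Na+ and Ca2+ channels were lower in the positive fraction. Of all genes tested 18.8% were lower and 21.0% higher there in PBS animals, and 25.8% and 27.6% in LPS animals. Of 8 Na+ channel alpha subunits tested, 6 were lower in PBS and all 8 in LPS animals, with median log2 fold changes of -0.70 and -0.99. Scn2a1 (Nav1.2) had 9452, 7664, 8612 and 9235 normalised counts in Input PBS and 4643, 5778, 5323 and 5125 in Positive PBS, with no overlap, and the log2 value of positive over input was -0.74 (SE 0.09, adjusted p = 4.17e-06). In LPS animals it had 9381, 7845, 8086 and 8040.1 in input and 4743, 3913, 3930.2, 3699 and 4207 in the positive fraction, again apart, with -1.02 (SE 0.09, adjusted p = 1.85e-08). Of 10 Ca2+ channel alpha1 subunits, 7 were lower and 1 higher in PBS animals, and 6 lower and 2 higher in LPS animals. The higher ones in LPS animals include Cacna1f, which passed the minimum only through Positive LPS, where it is high. For Cacna1b the values were 2105, 1409, 1566 and 2141 in Input PBS and 932, 959.6, 705 and 787 in Positive PBS, and 1958, 1529, 2273 and 1988 in Input LPS and 1069.8, 612, 861, 844 and 821 in Positive LPS. Input was above the positive fraction in all libraries of either treatment, by log2 fold changes of -1.09 (SE 0.17, adjusted p = 3.72e-05) and -1.20 (SE 0.16, adjusted p = 3.34e-06).

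Voltage-gated K+ alpha subunits had 3 higher and 10 lower of 34 tested in PBS animals, and 1 higher and 15 lower in LPS animals. Inward rectifiers had 3 and 7 lower of 11 and 0 higher. Two-pore-domain channels had 5 lower in each treatment of 10, with 1 (Kcnk6) and 2 (Kcnk6 and Kcnk13) higher. Ca2+- or Na+-activated K+ channels had 5 and 7 lower of 11, with 1 (Kcnn4) higher in each treatment. The shares of all genes tested were 18.8% lower in PBS and 25.8% in LPS animals. Among the members of these K+ channel classes, Kcnj13 and Kcnk5 passed the minimum only through the input groups. Kcng3 and Kcnmb1 passed only through Input PBS, and Kcnn4 only through Positive LPS. Each is high where it passed, so its side in these counts follows in part from the minimum. The 4 alpha2delta subunits of Ca2+ channels, which carry channels to the membrane, were each called in PBS animals, 3 lower and 1 (Cacna2d2) higher at 0.38. Among the 6 gamma subunits and transmembrane AMPA receptor regulatory proteins (TARPs) only Cacng3 was lower, in both treatments (-0.51 and -0.57).

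Among members averaging 50 or more normalised counts, the lowest on tagged ribosomes were a pair made by the choroid plexus, of which Kcnj13 passed the minimum only through both input groups, where it is high. Kcnj13, the Kir7.1 channel of choroid plexus epithelium, had 116, 157, 112 and 181 normalised counts in Input PBS and 42.2, 31.4, 18.3 and 43.3 in Positive PBS, and its log2 fold change was -2.05 (SE 0.34, adjusted p = 8e-05). In LPS animals it had 104, 109, 55.8 and 109 in input and 29.4, 34.2, 21.3, 7.73 and 24.1 in the positive fraction, with -2.01 (SE 0.32, adjusted p = 3.66e-05). The fractions did not overlap in either treatment. Kcne2, an auxiliary subunit also made by the choroid plexus, had 74.4, 145, 139.6 and 131 in Input PBS and 52.3, 39.0, 28.7 and 22.9 in Positive PBS, and 138, 105, 87.1 and 104 in Input LPS and 59.5, 25.4, 31.7, 40.6 and 34.2 in Positive LPS. It too was lower in every positive library than in any input library of its treatment (-1.76 (SE 0.30, adjusted p = 9.67e-05) and -1.51 (SE 0.27, adjusted p = 0.000121)). Of 5 other choroid plexus markers 4 were lower in the positive fraction of either treatment (median log2 fold change -0.81 and -1.15), and their summed level ran from 16630 to 24031 in Input PBS, from 4717 to 5858 in Positive PBS, from 18366 to 22777 in Input LPS and from 4567 to 8845 in Positive LPS. Their part in the Kcnj13 and Kcne2 results was not tested.

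Kcnh4, a voltage-gated K+ channel of the Elk family, and Kcnt2, the Na+-activated channel Slick, were next. Kcnh4 had 436, 324, 368 and 388 normalised counts in Input PBS and 244, 99.3, 116 and 76.9 in Positive PBS, and 273, 196, 264 and 241 in Input LPS and 155, 65.3, 84.3, 59.7 and 119 in Positive LPS. Without overlap between fractions, the log2 fold change was -1.50 (SE 0.31, adjusted p = 0.000697) with PBS and -1.34 (SE 0.29, adjusted p = 0.000728) with LPS. Kcnt2 had 362, 288, 323 and 382 in Input PBS and 189, 138, 122 and 171 in Positive PBS, and 403, 281, 247 and 344 in Input LPS and 201, 102, 87.9, 61.5 and 157 in Positive LPS. It was lower in each positive library as well, with log2 fold changes of -1.13 (SE 0.27, adjusted p = 0.00229) in PBS animals and -1.39 (SE 0.25, adjusted p = 0.000135) in LPS animals.

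A few members outside the microglial list were higher in the positive fraction. Cacna1s, the L-type Ca2+ channel pore of skeletal muscle, had 37.4, 41.6, 48.8 and 41.0 normalised counts in Input PBS and 82.8, 60.9, 58.7 and 63.1 in Positive PBS, and 39.1, 32.2, 45.2 and 38.9 in Input LPS and 70.1, 71.5, 51.0, 56.3 and 74.4 in Positive LPS. It was low but higher in each positive library (0.66 (SE 0.19, adjusted p = 0.00968) and 0.72 (SE 0.19, adjusted p = 0.00259)). Kcng4 (Kv6.4), a modifier that forms no channel alone, had 1836, 1549.8, 2071 and 1712 in Input PBS and 2857, 1929, 3302 and 2702 in Positive PBS, and 1796, 2228, 2076 and 1630.5 in Input LPS and 2176, 3370.0, 3073, 3187 and 1931 in Positive LPS. Its fractions overlapped in both treatments, at 0.59 (SE 0.18, adjusted p = 0.011) and 0.51 (SE 0.17, adjusted p = 0.0145), and the call in LPS animals was lost without Input LPS of animal 507 (0.43, adjusted p = 0.054). Kcnip1 (KChIP1), a Ca2+-binding partner of Kv4 channels, had 1142, 1027, 1120.3 and 1142 in Input PBS and 1550.4, 1576, 1712 and 1542 in Positive PBS, without overlap, at 0.53 (SE 0.09, adjusted p = 0.000102). In LPS animals it was not called, with 1104, 1221, 1242 and 1125 in input and 1204, 1503, 1424, 1446 and 1140.4 in the positive fraction (0.20 (SE 0.08, adjusted p = 0.0521)). The difference of its LPS effects between fractions was -0.33 (SE 0.12, adjusted p = 0.124), and with the animal as a block it was called (-0.36, adjusted p = 0.021).

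**Figure D3:**
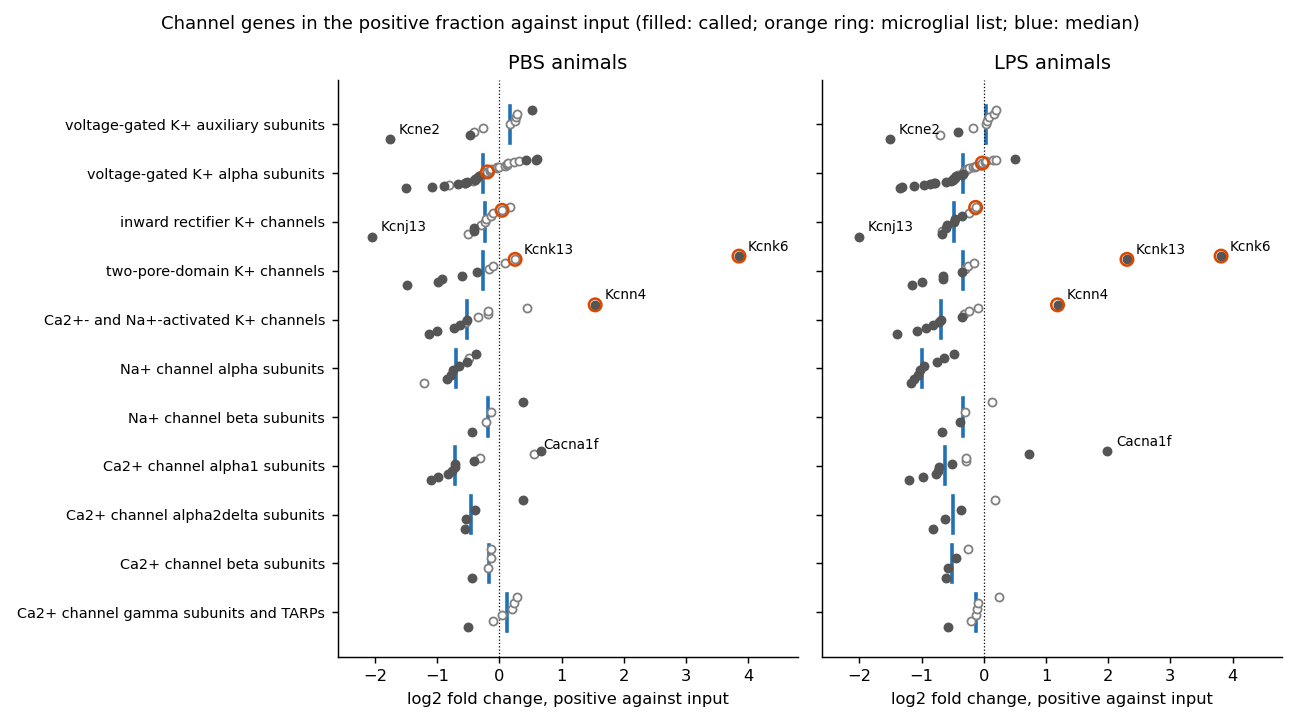
Log2 fold change of the positive fraction against input (horizontal axes) for the 111 tested members, by subunit class (rows), in PBS animals (left) and LPS animals (right). Filled points were called, open points were not, orange rings mark the microglial list and blue bars are class medians. Most classes have medians under 0, and Kcnk6 stands apart at 3.85 and 3.81.

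With LPS, members moved down more often than up. In the positive fraction 4 members were raised and 29 lowered, against 19.0% raised and 14.9% lowered of all genes tested. In input 3 were raised and 10 lowered, against 7.16% and 5.26%, and scaling over all 18 libraries gave 1 raised and 10 lowered of 106 tested. The median log2 fold change of members was -0.24 in the positive fraction and -0.11 in input, beside 0.01 and 0.00 over all genes. Over the 103 members that passed the minimum in every group, 2 were raised and 28 lowered on tagged ribosomes, with 2 and 10 in input. The members called in both fractions numbered 9 (8.11%, against 9.59% of all genes tested), of which 7 were lowered in both (Cacng4, Kcnj16, Kcna6, Scn2b, Cacng3, Cacng8 and Cacnb3), Scn10a was raised in both and Kcnk13 moved in opposite directions. Of all genes tested 4.05% were lowered in both and 5.47% raised in both. The groups compared did not overlap for 32 of the 111 members in the positive fraction (33.8% of all genes were called and 30.1% did not overlap) and for 22 in input (12.4% called and 24.2% not overlapping).

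Of the 52 neuronal channel genes 14 were lowered in the positive fraction (median log2 fold change -0.25) and 5 in input (median -0.11). In edgeR 0 were raised in either fraction, as in DESeq2 and limma-voom, and 0 and 3 had an unadjusted p under 0.05 in that direction. The list ran from -0.89 for Kcna6 to 0.21 for Kcnk9, a two-pore-domain channel, in the positive fraction. Of the 10 neuron markers 5 were lowered in the positive fraction and 0 in input by edgeR, DESeq2 and limma-voom (3 in input at an unadjusted p under 0.05), and of the 91 other genes of the study's neuron list 41 and 6, with 0 raised by these tools (0 and 1 at an unadjusted p under 0.05). The summed level of the neuron markers ran from 238266 to 273434 in Positive PBS and from 177319 to 246058 in Positive LPS, and from 225783 to 235773 in Input PBS and from 203616 to 221259 in Input LPS. Their part in the fall of neuronal channels was not tested. The fractions' LPS effects were called as different for 0 of the 52 neuronal genes by edgeR, DESeq2 and limma-voom, with 4 at an unadjusted p under 0.05 in edgeR, and the difference ranged from -0.35 to 0.05. Of all genes tested 5.46% had a larger and 1.42% a smaller LPS effect in the positive fraction. The difference was under 0 for 47 of the 52 neuronal genes and above 0 for 5. Its median was -0.15, beside -0.02 over all genes.

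**Figure D4:**
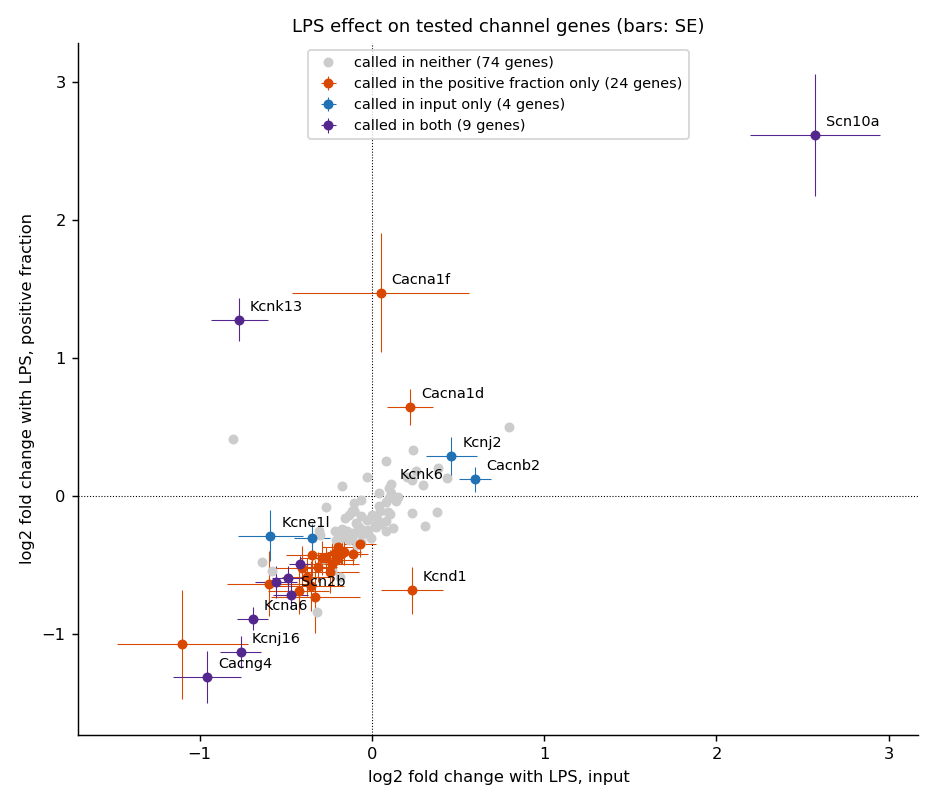
Log2 fold change with LPS in input (horizontal axis) and in the positive fraction (vertical axis) for the 111 tested members. Colours give the fraction in which a member was called, and bars are SE, drawn for called members. Kcnk13, in the upper left, is the only member called as raised in the positive fraction and as lowered in input. Cacng4 and Kcnj16 lie lowest.

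The most lowered member was Cacng4, a TARP of AMPA receptors that is also made by oligodendrocyte precursors. It had 411, 484, 331 and 461 normalised counts in Input PBS and 158, 229, 241 and 240.3 in Input LPS, and 454, 617, 428 and 476 in Positive PBS and 166, 273, 189, 135 and 231 in Positive LPS. LPS and PBS libraries were apart in both fractions. In the positive fraction its log2 fold change was -1.31 (SE 0.19, adjusted p = 2.66e-05), and in input it was -0.96 (SE 0.20, adjusted p = 0.00285). Of the 6 gamma subunits and TARPs tested, 4 were lowered in the positive fraction (Cacng4, Cacng5, Cacng3 and Cacng8) and 3 in input (Cacng4, Cacng3 and Cacng8), with medians of -0.61 and -0.42. Cacng8, a TARP abundant in the hippocampus, was lowered by log2 values of -0.59 (SE 0.09, adjusted p = 4.19e-05) on tagged ribosomes, and -0.49 (SE 0.09, adjusted p = 0.00158) in input.

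Kcnj16 encodes Kir5.1, which pairs with other inward rectifiers in glia. It had 1201, 1421, 1267 and 1158 normalised counts in Input PBS and 801, 804, 641 and 729 in Input LPS, and 1143, 1038, 1077 and 1059.6 in Positive PBS and 484, 590.3, 499, 368 and 526 in Positive LPS. Every LPS library was below every PBS library, with log2 values of -1.13 (SE 0.11, adjusted p = 4.54e-07) on tagged ribosomes, then -0.76 (SE 0.12, adjusted p = 0.000208) in input. Oligodendrocyte markers moved as well. Their summed level over 5 genes ran from 97269 to 152610 in Input PBS and from 62616 to 89229 in Input LPS, and from 23243 to 30876 in Positive PBS and from 19799 to 29032 in Positive LPS, with 4 of 5 lowered in input and 1 in the positive fraction. The 5 astrocyte markers summed to between 86306 and 97022 in Input PBS, 83361 and 88536 in Input LPS, 93347 and 142700 in Positive PBS and 89377 and 102185 in Positive LPS. Of 138 genes of the study's astrocyte list (among them the member Kcnn3), 61 were lowered and 13 raised with LPS in the positive fraction (median log2 fold change -0.30), with 40 and 12 in input (median -0.19). The part of either cell type in the Cacng4 and Kcnj16 results was not tested.

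Kcna6 (Kv1.6) and Scn2b, the beta2 subunit of Na+ channels, were lowered at high counts. Kcna6 had 2861, 3643, 3082 and 3287 normalised counts in Input PBS and 2035, 2076, 1821 and 2034 in Input LPS, and 2902, 3269, 3140.0 and 3151 in Positive PBS and 1459, 1888, 1684, 1590.0 and 1802 in Positive LPS, with no overlap in either fraction. It fell in the positive fraction (-0.89 (SE 0.08, adjusted p = 2.15e-07)) and in input (-0.69 (SE 0.09, adjusted p = 2.7e-05)). Scn2b had 10654, 9343, 10079 and 10665 in Input PBS and 7841, 8218, 5619 and 7690.4 in Input LPS, and 8481, 9659.9, 9697 and 9226 in Positive PBS and 5499, 6201, 5202, 5343 and 6034 in Positive LPS. Within each fraction every LPS library was again the lower, at -0.71 (SE 0.10, adjusted p = 1.27e-05) and -0.47 (SE 0.10, adjusted p = 0.00366). Scn3b and Scn4b, which encode Na+ channel beta subunits too, were not called with LPS in either fraction.

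Kcng1 (Kv6.1), a modifier subunit, fell in the positive fraction. It had 349, 315, 293 and 286 normalised counts in Positive PBS and 239, 216, 167, 156 and 189 in Positive LPS, without overlap (-0.69 (SE 0.17, adjusted p = 0.00346)). In input, with 277, 287, 242 and 331 and 252, 229, 136 and 231, it was not called (-0.42 (SE 0.18, adjusted p = 0.123)). Kcne1l, an X-linked auxiliary subunit of the Kcne family, was lowered in input, at 193, 273, 236 and 211 in Input PBS and 110.1, 142, 195 and 159 in Input LPS, where 1 LPS library reached the PBS range (-0.59 (SE 0.19, adjusted p = 0.0444)). That call was kept in 14 of 27 alternative settings, and was lost when any of 10 libraries was left out (Input LPS of animals 266, 267 and 507, Positive LPS of 267, and both libraries of 272, 273 and 506), with adjusted p from 0.0515 to 0.143. With sex as a covariate it was lost too (adjusted p = 0.0619). In the positive fraction Kcne1l had 184, 156, 158 and 158 and 102, 139, 179.9, 140.3 and 112 and was not called (-0.28 (SE 0.18, adjusted p = 0.224)). In PBS animals Kcne1l was lower in the positive fraction than in input (log2 fold change -0.48 (SE 0.19, adjusted p = 0.0477)), a call lost without any of 9 libraries (Input LPS of animals 267 and 507, Positive LPS of 267, and both libraries of 272, 273 and 506), with adjusted p from 0.0527 to 0.134. Sex as a covariate also removed this call (adjusted p = 0.0515).

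Cacna1d, the L-type pore Cav1.3, rose with LPS in the positive fraction. It had 1371, 1045, 1002 and 1091 normalised counts in Positive PBS and 1926, 1637, 1663, 1946 and 1646 in Positive LPS, without overlap, at 0.64 (SE 0.13, adjusted p = 0.000743) on the log2 scale. In input it had 2155, 1438, 1633 and 2132 and 2064, 1880.2, 2607 and 2027, which overlapped (0.22 (SE 0.14, adjusted p = 0.304)). The difference of these effects was not called (0.42 (SE 0.19, adjusted p = 0.214)). In PBS animals Cacna1d was lower in the positive fraction than in input (log2 fold change -0.71 (SE 0.14, adjusted p = 0.000394)), and in LPS animals the difference was -0.28 (SE 0.13, adjusted p = 0.0643), not called.

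Cacnb2, a beta subunit that brings L-type channels to the membrane, and Kcnd1 (Kv4.1) were the members besides Kcnk13 whose LPS effect differed between fractions. Cacnb2 had 1454, 1242, 1339 and 1467 normalised counts in Input PBS and 2185, 1713, 2397 and 2047 in Input LPS, and 1278, 1283, 1214 and 1237 in Positive PBS and 1394, 1209, 1448, 1373 and 1398 in Positive LPS. Input LPS was above Input PBS in every library and the positive groups overlapped, with log2 fold changes of 0.60 (SE 0.09, adjusted p = 0.000178) in input, 0.12 (SE 0.09, adjusted p = 0.277) on tagged ribosomes and a difference of -0.48 (SE 0.13, adjusted p = 0.027). Kcnd1 had 141, 138, 138 and 174 in Input PBS and 113, 167, 190.3 and 226 in Input LPS, and 259, 242, 204 and 191 in Positive PBS and 141, 136, 138, 124 and 161 in Positive LPS. It was higher in Positive PBS than in the other positive group in every library, and the input groups overlapped (-0.68 (SE 0.17, adjusted p = 0.00398) and 0.23 (SE 0.18, adjusted p = 0.427), difference -0.91 (SE 0.25, adjusted p = 0.0304)). Its enrichment was 0.60 (SE 0.18, adjusted p = 0.0114) in PBS animals and -0.32 (SE 0.17, adjusted p = 0.117) in LPS animals. The difference was kept in 17 of 26 alternative settings for Cacnb2 and in 16 of 26 for Kcnd1, against 26 of 26 for Kcnk13. For Cacnb2 it was lost without any of 6 libraries (Input LPS of animals 266 and 270, Positive PBS of 268, both libraries of 272 and Input PBS of 273), with adjusted p from 0.0506 to 0.0656 and values from -0.47 to -0.41. For Kcnd1 it was lost without any of 8 libraries (both of 268 and 272, Input PBS of 273, Input LPS of 270 and 507 and Positive LPS of 271), with adjusted p from 0.0522 to 0.0829 and values from -0.89 to -0.77.

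**Figure D5:**
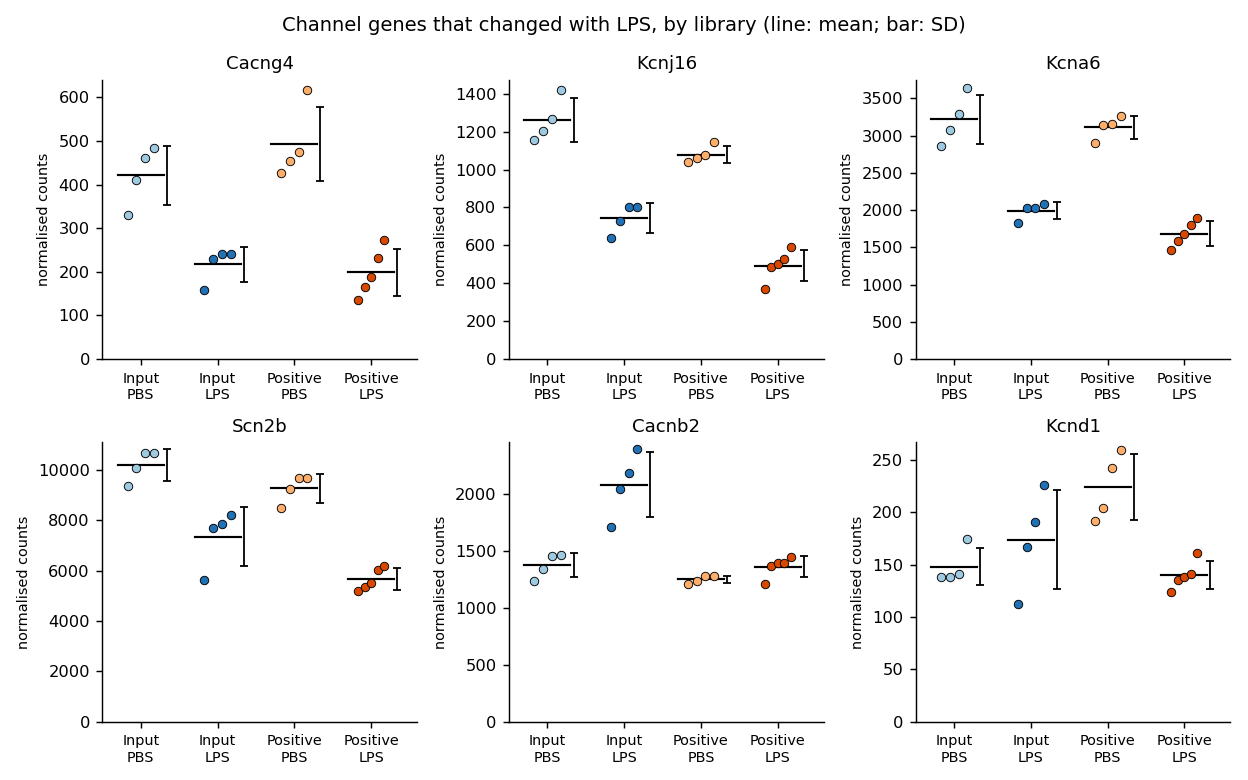
Normalised counts (vertical axes, from 0) of 6 members that changed with LPS, in the 4 groups (horizontal axes). Each point is 1 library, lines are means and bars are SD. Cacng4, Kcnj16, Kcna6 and Scn2b are lower with LPS in both fractions, Cacnb2 is higher with LPS in input, and Kcnd1 is lower with LPS in the positive fraction.

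Scn10a and Cacna1f were raised at low counts. Scn10a, the Nav1.8 channel of pain-sensing neurons, had 7.75, 9.29, 18.1 and 18.1 normalised counts in Input PBS and 104, 69.0, 38.6 and 105 in Input LPS, and 9.80, 6.19, 3.92 and 3.09 in Positive PBS and 53.9, 34.2, 26.0, 30.9 and 32.6 in Positive LPS. LPS was above PBS in every library of either fraction, with 2.62 (SE 0.44, adjusted p = 0.000133) on tagged ribosomes, and 2.57 (SE 0.38, adjusted p = 0.000125) in input, but the gene passed the minimum only through the LPS groups. Cacna1f, the Cav1.4 channel of the retina, had 13.2, 16.5, 7.57 and 9.79 in Positive PBS and 28.0, 28.6, 27.9, 31.5 and 52.2 in Positive LPS, through which alone it was tested (1.48 (SE 0.43, adjusted p = 0.0109)), and 11.7, 5.98, 7.08 and 7.30 in Input PBS and 1.11, 6.32, 7.39 and 17.9 in Input LPS (0.05 (SE 0.52, adjusted p = 0.962)). The summed level of 7 neutrophil and monocyte markers ran from 156 to 413 in Input PBS, from 347 to 1051 in Input LPS, from 164 to 295 in Positive PBS and from 358 to 865 in Positive LPS. Of 4 tested, S100a8 and S100a9 were raised in each fraction and Ly6c2 was not called, while Ccr2 was lowered in the positive fraction (log2 fold change -2.33) and not called in input. Ly6g was at 0 in all 17 libraries and Elane in 16. Their part in the results for Scn10a and Cacna1f was not tested.

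Channels and ion pumps outside the member families gave the setting. Of 38 listed, such as Hcn, Trp, Orai, Clic and Lrrc8 genes, Na+/K+-ATPase subunits and the inflammasome genes Nlrp3 and Nek7, all were tested. In the positive fraction of PBS animals 8 were higher (21.1%) and 6 lower (15.8%), against 21.0% and 18.8% of all genes tested. In LPS animals 11 were higher (28.9%) and 7 lower (18.4%), against 27.6% and 25.8%. LPS raised 4 (10.5%) and lowered 3 (7.89%) in each fraction. Among all genes tested, 19.0% were raised and 14.9% lowered on tagged ribosomes. For input these shares were 7.16% and 5.26%. Hvcn1, the voltage-gated proton channel of phagocytes, was the 1 gene of this list (2.63%) whose LPS effect differed between fractions, against 6.88% of all genes tested. Its normalised counts ran from 427 to 514 in Input PBS, from 595 to 674 in Input LPS, from 1876 to 2161 in Positive PBS and from 5111 to 11229 in Positive LPS, and it rose in the positive fraction by 1.81 (SE 0.17, adjusted p = 3.12e-07), with a log2 fold change in input of 0.49 (SE 0.18, adjusted p = 0.0828) and a difference of 1.32 (SE 0.25, adjusted p = 0.00321). Nlrp3, whose activation follows K+ efflux, ran from 25.8 to 39.2 in Input PBS, from 98.0 to 124 in Input LPS, from 256 to 563 in Positive PBS and from 1367 to 1948 in Positive LPS, and rose in both fractions, by 1.95 (SE 0.20, adjusted p = 4.78e-07) on tagged ribosomes, and 1.78 (SE 0.24, adjusted p = 6.03e-05) in input.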

How the data were processed

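Input and anti-GFP positive RNA from 9 brains was sequenced as strand-specific poly(A) libraries. In Strand NGS the authors trimmed reads, aligned them to mm10 in directional mode and deposited estimated counts per gene, of which 81.7% of the nonzero values were not whole, and log2 values scaled by DESeq over all 18 libraries (a tool the submitters' processing notes also name). Here the deposited estimated counts were rounded and divided by median-of-ratios size factors over 15766 genes. The input library of animal 271 (1252 counts, 10 of them on 5 members) was left out, which leaves 17 libraries of 22968834 to 35123335 counts.

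The 14803 genes whose libraries all exceeded 20 normalised counts in 1 or more groups were fitted with edgeR 4.0.16 in R 4.3.3 (glmQLFit and glmQLFTest, 1 mean per group), in place of the study's analysis of variance, since the values are counts. The 5 contrasts were LPS against PBS in each fraction, positive against input in each treatment, and the difference of the LPS effects. Alternatives were DESeq2 1.42.0, limma-voom (limma 3.58.1), TMM scaling, no filter, no fold threshold, all 18 libraries, the deposited log2 values, sex as a covariate, fits on the compared libraries alone, the animal as a block and leaving out libraries.

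The fractions of an animal come from the same brain, so the animal pairs them. Deviations of both libraries of an animal from their group means correlated at 0.16 to 0.52 in each of 8 pairs. The block was a fixed effect for positive against input and for the difference, and a correlation in limma-voom for the LPS effects. The blocked fit is given beside a result where it changed the call.

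The members and gene lists were chosen with earlier results of these data known, and no list was tested as a set. The study's neuron and astrocyte lists were tabulated by it from published data on other samples. Values by library are given for the 5 microglial channel genes and, in each contrast, for up to 5 most raised and 5 most lowered called members averaging 50 or more normalised counts. Scn2a1 (as the example of the Na+ channel alpha subunits), Scn10a, Cacna1f, Hvcn1 and Nlrp3 were added after their values were seen. Exon lengths are those of GENCODE M21, and promoter sequences are RefSeq's. Among tested members Kcnk2 shares its strand with the protein-coding gene Gm3837, and Cacna1c, Cacna1d, Cacnb2 and Kcnq5 with pseudogenes inside them, so their counts are uncertain there.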

Additional observations from a re-analysis of the deposited data

Results flagged for a closer look

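Of 88 groups of 4 or 5 libraries, over 22 named members, a single library stood apart in 7, a gap that chance gives in about 1 in 20 groups. Over this many groups chance alone gives some such gaps. In Input LPS, animal 266 was lowest for Cacng4 (158 normalised counts, the others 229 to 241), and animal 270 was lowest for Kcna6 (1821, the others 2034 to 2076) and for Kcnj13 (55.8, the others 104 to 109). In Input PBS animal 506 was highest for Kcnd1 (174, the others 138 to 141). In Positive PBS animal 268 was highest for Kcne1l (184, the others 156 to 158) and for Kcnn4 (50.1, the others 19.6 to 24.7), and animal 273 was lowest for Kcnk13 (310.4, the others 447 to 468).

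The LPS effect differed between fractions for 3 members by the interaction term. The effect in the positive fraction minus that in input was 2.05 on the log2 scale for Kcnk13, -0.91 for Kcnd1 and -0.48 for Cacnb2.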

How the results depend on the processing

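With all 18 libraries, size factors rest on the few genes counted in the nearly empty library, and members raised with LPS numbered 2 in the positive fraction and 1 in input, those higher in the positive fraction of PBS animals 5, and those with a smaller LPS effect in the positive fraction 1. The deposited log2 values gave 5 members higher in PBS animals and 0 with a smaller LPS effect, and leaving out animals 506 and 507 also gave 0 for the last. These scalings moved the median log2 fold change of all genes in PBS animals by -0.12 (all 18 libraries) and -0.13 (deposited values), and in LPS animals by -0.11 (deposited values), so changes of positive against input are relative to that shift. Members then split into 5 higher and 54 lower (all 18 libraries) or 56 lower (deposited values) in PBS animals.

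Leaving out 1 library gave 24 to 32 members lowered and 4 to 5 raised with LPS in the positive fraction, 8 to 11 and 2 to 4 in input, 38 to 45 lower and 8 to 10 higher in the positive fraction of PBS animals, 54 to 62 and 5 to 7 in that of LPS animals, and 0 to 3 members with a smaller and 1 with a larger LPS effect in the positive fraction than in input.

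With the animal as a block, 28 members were lowered and 4 raised with LPS in the positive fraction, 14 and 3 in input, 48 lower and 9 higher in PBS animals, 65 and 6 in LPS animals, and 3 against 1 for the difference of the LPS effects. For the members described by library the block changed the call of Kcnh4 with LPS in input (-0.69, adjusted p = 0.0315 in limma-voom) and of Kcnip1 for the difference of the LPS effects (given above), and no other call. Among 3053 values of named members under alternatives, 2973 kept their side of the threshold, 65 lost a call and 15 gained one. No value called in the main fit or in the alternative changed direction between them. Direction was not compared where neither was called. Kcng4 was not called as higher with the deposited values, nor Cacna1s in PBS animals when 506 and 507 were left out. The fit on the compared libraries alone has no value for the difference of LPS effects. Members near 20 normalised counts are the least certain.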
